A study of Mus musculus with 6 samples.

Results

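The 10 genes Des, Vim, Acta2, Tagln, Pdgfrb, Pdgfra, Hgf, Reln, Ecm1 and Colec11, used as markers of hepatic stellate cells, were followed in whole liver of mice with and without Igfbp7. They were taken by gene symbol from the 22609 genes listed in each library, and all 10 were present. The 2 groups were 3 liver libraries from adult Igfbp7 knock-out mice (IGFBP7_KO, knockout below) and 3 from adult wild type mice (WT), and both groups had the strain C57BL/6. The knock-out was made by Cre-loxP recombination, and no promoter driving Cre is named in the labels. The labels give no treatment, sex, exact age or pooling of animals, and whether libraries of 1 genotype are separate animals is not stated. The p-values therefore set the difference between genotypes against the spread between these samples only. How far that spread is one between animals is not known.

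Hepatic stellate cells lie between the hepatocytes and the sinusoidal endothelium, where they store vitamin A and make growth factors and matrix. In injury they are known to lose their vitamin A stores and to become contractile, collagen-producing myofibroblasts, a switch followed by the rise of alpha-smooth muscle actin. Signalling through the receptors for platelet-derived growth factor (PDGF) drives their proliferation. Igfbp7 encodes a secreted protein that binds insulin-like growth factors, and the series concerns it in liver cancer, whereas the tissue measured here was adult liver.

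Gene counts per library numbered between 18912701 and 22419411 in the knockout and between 16712568 and 21478524 in wild type livers. Igfbp7 had 5, 2 and 9 counts in knockout replicates 1 to 3, against 1438, 1705 and 1055 counts in wild type replicates 1 to 3, as the genotypes in the labels call for. Levels are given as CPM, the usual counts-per-total scale of edgeR, with library sizes scaled by TMM. Clock genes set wild type replicate 1 apart by a clock score, the difference in mean log2 CPM between evening-phase and morning-phase genes. Its score was -0.56, against 3.10 to 3.71 in the knockout and 2.30 and 2.81 in the other wild type libraries. All knockout scores thus lay above all wild type scores, so as a covariate the score is partly confounded with genotype.

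None of the 10 stellate cell markers passed the test between genotypes. With edgeR's quasi-likelihood test and Benjamini-Hochberg adjustment over the 12522 genes tested, 0 of 10 had an adjusted p under 0.05, where the same threshold called 27 genes or 0.216% overall. At an unadjusted p under 0.05 there was 1 marker, Tagln, lower in the knockout, against 7.35% of all tested genes in that direction, and limma-voom also called 0 of 10. So did DESeq2, whose threshold passed 3.41% of the genes it tested. Fitted log2 fold changes, knockout over wild type, ran from -0.71 for Acta2 to 0.17 for Pdgfra, with 6 below 0 and 4 above. Their median was -0.078, beside 0.0013 over all tested genes, of which 49.7% lay below 0. All 10 passed the filter on low counts, and the lowest count of any marker in any library was 24, for Acta2, so no marker entered the test through 1 genotype alone. RNA from whole tissue does not separate fewer stellate cells from less RNA per cell, nor show which cells a transcript came from.

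**Figure D1:**
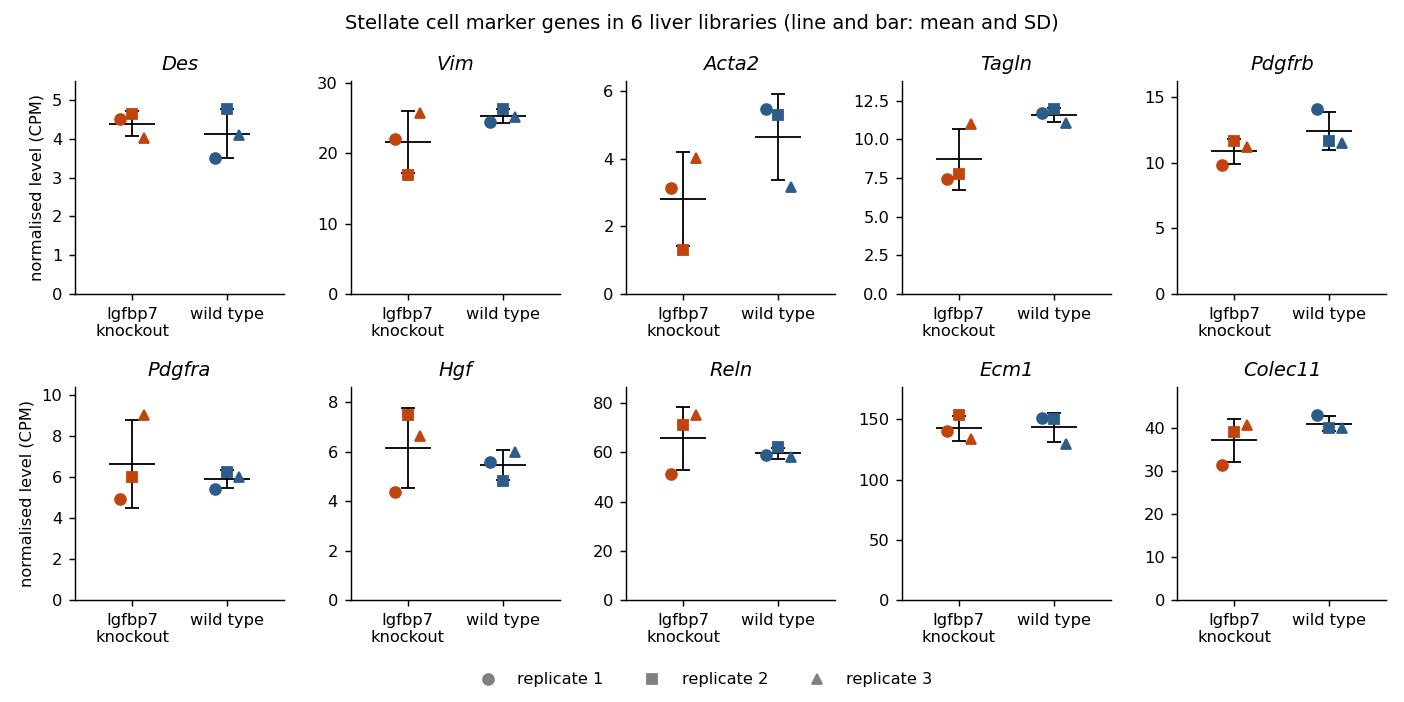
Level of each of the 10 markers in CPM (vertical axis, from 0) in the 3 knockout libraries (left) and the 3 wild type libraries (right), with symbols for the replicate number and the mean and SD as line and bar. Only for Tagln do the 3 knockout libraries, at 7.43, 7.75 and 11.0 CPM, lie below all wild type libraries, at 11.1 to 12.0 CPM.

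Among the cytoskeletal and contractile markers, the contractile pair Acta2 and Tagln had the most negative fold changes of the 10 and the filament genes Des and Vim had smaller ones. Tagln encodes transgelin (SM22-alpha), an actin-binding protein of smooth muscle and myofibroblasts. It stood at 7.43, 7.75 and 11.0 CPM in knockout replicates 1 to 3, against 11.7, 12.0 and 11.1 CPM in wild type replicates 1 to 3. The groups did not overlap, as held for 10.1% of all tested genes in this direction, and knockout replicate 3 lay just below the lowest wild type library. The means were 8.73 ± 1.97 CPM in the knockout and 11.6 ± 0.5 CPM in wild type livers (SD, n = 3 each), for a log2 change of -0.41 ± 0.17 (SE; edgeR adjusted p = 0.287). Over the alternatives the adjusted p of Tagln ran from 0.104 to 0.808. Tagln overlaps Pcsk7 in assembly GRCm38.p6. Pcsk7, a proprotein convertase, had 43.9 to 46.0 CPM in the knockout and 40.9 to 44.8 CPM in wild type livers, for a log2 change of 0.064 ± 0.086 (SE).

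Acta2, which encodes alpha-smooth muscle actin, the usual label of activated stellate cells, had the lowest point estimate and the widest interval. Its levels were 3.13, 1.31 and 4.03 CPM in knockout replicates 1 to 3, against 5.48, 5.28 and 3.17 CPM in wild type replicates 1 to 3. The groups overlapped: knockout replicate 2 was lowest, and wild type replicate 3 stood within the knockout range. That lowest value rests on 24 counts, with an exact Poisson interval of 15.4 to 35.7 counts (95%, counting error only), and the counts in the other libraries were 55 to 113. A log2 fold change of -0.71 ± 0.37 (SE) did not pass (edgeR adjusted p = 0.399). Its 95% interval, as a ratio of knockout to wild type, was 0.340 to 1.09. Without knockout replicate 2 the log2 fold change was -0.38, without knockout replicate 3 it was -1.05, and with the clock score as a covariate it was -0.38.

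Promoter windows were searched for the CArG box, the element through which serum response factor is known to drive smooth muscle genes. A CArG box is CC, then 6 bases of A or T, then GG, and it reads as the same pattern on both strands. RefSeq promoter windows of assembly GRCm38.p6, 300 bases long with 250 before the start of the gene, were found for 8 of the 10 markers. Tagln and Pdgfrb had none and were not searched. No window held a box with an exact core, which 1.81% of 27025 genes with a window hold. With up to 1 other base allowed in the core, 11.3% of these genes have a match. Among the markers this held for 1 of 8, near that share. The marker was Acta2, which had 2 matches. The 150 bases before its start, chr19:34255374-34255523 on the minus strand, read 5′ to 3′ with both matches in capitals:
Acta2: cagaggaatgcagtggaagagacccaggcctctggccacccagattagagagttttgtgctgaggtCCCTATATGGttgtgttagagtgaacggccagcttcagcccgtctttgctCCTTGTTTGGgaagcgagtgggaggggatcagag
The matches begin 84 and 34 bases before the start. They describe these letters and were not tested for binding.

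Vim encodes vimentin, the intermediate filament of mesenchymal cells, which macrophages, lymphocytes and endothelial cells also make. It was measured at 22.0, 16.9 and 25.7 CPM in knockout replicates 1 to 3, against 24.3, 26.3 and 25.2 CPM in wild type replicates 1 to 3. Knockout replicates 1 and 2 lay below the wild type libraries and knockout replicate 3 lay among them, so the groups overlapped. Its log2 fold change was -0.23 ± 0.15 (SE; edgeR adjusted p = 0.505), and it ran from -0.38 without knockout replicate 3 to -0.084 without knockout replicate 2. Of the 15 Kupffer cell and macrophage markers tested, 14 also had a negative fold change. They summed to 548, 477 and 736 CPM in knockout replicates 1 to 3, the order that Vim had among these 3 libraries. In wild type replicates 1 to 3 they summed to 979, 929 and 859 CPM. There the order differed, since wild type replicate 1 had the highest sum and the lowest Vim of its genotype. None of the 15 was at 0 in all libraries. The part of these cells in the level of Vim was not tested.

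Des, the gene for desmin, the intermediate filament of muscle by which stellate cells are recognised in rodents, had nearly the same level in both genotypes. Knockout replicates 1 to 3 had 4.50, 4.64 and 4.03 CPM, against 3.51, 4.77 and 4.10 CPM in wild type replicates 1 to 3. Both the lowest and the highest library were wild type. On the log2 scale its fold change of 0.085 ± 0.176 (SE; edgeR adjusted p = 0.868) had an interval from 0.803 to 1.40 as a ratio. It was -0.019 without wild type replicate 1 and 0.20 without wild type replicate 2. The spread of Des within each genotype, 7.32% of the mean in the knockout and 15.3% in wild type livers, was close to the counting error of 10.7% and 11.4% that its 66 to 102 counts per library give. Changes of Des within the ratio interval of 0.803 to 1.40 are left unresolved by these libraries.

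The PDGF receptors differed little between genotypes. Pdgfrb, whose receptor binds PDGF-B and PDGF-D and marks stellate cells and other pericytes, had 9.80, 11.6 and 11.2 CPM in knockout replicates 1 to 3, against 14.1, 11.6 and 11.5 CPM in wild type replicates 1 to 3. Wild type replicate 1 was highest, and knockout replicate 2 lay between the lower wild type libraries. Its log2 fold change was -0.19 ± 0.13 (SE; edgeR adjusted p = 0.541), with a ratio interval of 0.711 to 1.08, and it was -0.12 without knockout replicate 1, -0.090 without wild type replicate 1 and -0.037 with the clock score as a covariate. Pdgfra, which portal fibroblasts share with stellate cells, encodes a receptor that binds PDGF-A, PDGF-B and PDGF-C. Its level was 4.92, 6.00 and 9.03 CPM in knockout replicates 1 to 3. It had 5.42, 6.27 and 6.00 CPM in wild type replicates 1 to 3. The knockout libraries thus spanned the wild type range on both sides. A log2 fold change of 0.17 ± 0.23 (SE; edgeR adjusted p = 0.77) turned to -0.11 without knockout replicate 3. It was 0.12 without wild type replicate 1, 0.35 without knockout replicate 1 and 0.043 with the clock score as a covariate.

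All 4 PDGF ligand genes were tested and 0 passed over all genes, with a median log2 fold change of -0.37 and all 4 below 0. At an unadjusted p under 0.05 there were 2, both lower, where 7.35% of all tested genes were, and DESeq2 called 0. Pdgfd stood at 0.912 ± 0.291 CPM in the knockout and 1.59 ± 0.13 CPM in wild type livers (SD, n = 3 each), for a log2 change of -0.79 ± 0.29 (SE; edgeR adjusted p = 0.242). Pdgfc was at 4.21 ± 1.11 CPM in the knockout and 6.43 ± 1.03 CPM in wild type livers (SD, n = 3 each), for a log2 change of -0.60 ± 0.22 (SE; edgeR adjusted p = 0.252). In both the 3 knockout libraries lay below the 3 wild type libraries, beside 10.1% of all tested genes. Pdgfa, at -0.13 ± 0.17 (SE), and Pdgfb, at -0.15 ± 0.29 (SE), had overlapping groups.

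**Figure D2:**
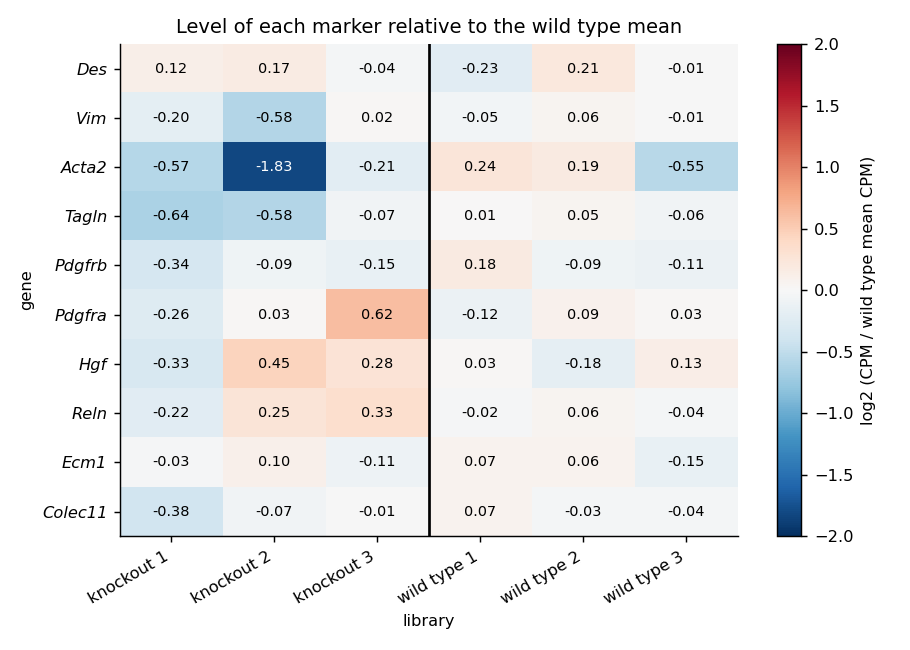
Level of each marker (rows) in each library (columns, knockout left of the line, wild type right of it) as log2 of CPM over the wild type mean, red above and blue below it. The knockout column for replicate 1 is below 0 for all markers but Des, Acta2 in knockout replicate 2 is the lowest cell at -1.83, and Pdgfra in knockout replicate 3 is the highest at 0.62.

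The secreted markers held their level or varied mostly among the knockout livers. Hgf encodes hepatocyte growth factor, the ligand of Met made by stellate and endothelial cells that drives hepatocyte growth. It had 4.36, 7.48 and 6.63 CPM in knockout replicates 1 to 3, against 5.58, 4.82 and 6.00 CPM in wild type replicates 1 to 3. Knockout replicate 1 lay below, and knockout replicates 2 and 3 above, all wild type libraries. The log2 fold change was 0.17 ± 0.22 (SE; edgeR adjusted p = 0.764), and it ran from 0.0090 without knockout replicate 2 to 0.37 without knockout replicate 1. It was 0.11 without knockout replicate 3 and 0.081 without wild type replicate 2. Of the 10 genes fixed for the HGF axis, activators, inhibitors and receptor included, all were tested and 0 passed, with a median of 0.11, 6 above 0 and 4 below. At an unadjusted p under 0.05 there was 1, higher, where 8.1% of all tested genes were, and DESeq2 called 0. Gab1, a docking protein of the Met receptor, had the smallest p of them, at 20.1 ± 1.1 CPM in the knockout and 15.1 ± 1.3 CPM in wild type livers (SD, n = 3 each), for a log2 change of 0.41 ± 0.11 (SE; edgeR adjusted p = 0.138). Spint2, a Kunitz-type inhibitor of HGF-activating proteases, followed at -0.20 ± 0.10 (SE) and St14, the protease matriptase, at -0.70 ± 0.37 (SE) with 7 to 22 counts per library.

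Reln, the gene for the large secreted glycoprotein reelin, was among the best measured markers, with 1003 to 1529 counts per library. Knockout replicates 1 to 3 had 51.1, 70.9 and 75.1 CPM, against 58.8, 62.1 and 57.9 CPM in wild type replicates 1 to 3. The wild type libraries sat close together, and the knockout libraries lay outside them, 1 below and the other two above. The spread was 19.5% of the mean in the knockout and 3.76% in wild type livers, where counting error was 2.79% and 2.97%. A log2 fold change of 0.14 ± 0.14 (SE) did not pass (edgeR adjusted p = 0.689), and its ratio interval was 0.885 to 1.37. Without knockout replicate 1 it was 0.29, and the adjusted p was 0.206, the lowest over the alternatives, which ran up to 0.974. It was 0.082 without knockout replicate 2 and 0.034 without knockout replicate 3. Of the 3 reelin pathway genes fixed alongside, the receptor gene Vldlr was at 0.77 ± 0.51 (SE) on the log2 scale and the adaptor gene Dab1 at -0.20 ± 0.56 (SE), neither past the threshold, and the receptor gene Lrp8 was too low to be tested.

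Ecm1, encoding extracellular matrix protein 1, a secreted glycoprotein, had the narrowest interval of the 10. It stood at 141, 153 and 133 CPM in knockout replicates 1 to 3, against 151, 149.8 and 129 CPM in wild type replicates 1 to 3. The groups covered almost the same range. The log2 fold change was -0.010 ± 0.099 (SE; edgeR adjusted p = 0.976), with a ratio interval of 0.850 to 1.16.

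Colec11 encodes collectin-11 (CL-K1), a soluble lectin that starts the lectin pathway of complement together with MASP proteases. It had 31.5, 39.2 and 40.8 CPM in knockout replicates 1 to 3, against 43.1, 40.1 and 40.1 CPM in wild type replicates 1 to 3. Knockout replicate 1 stood apart below the other 5 libraries. For Colec11 the log2 fold change was -0.14 ± 0.12 (SE; edgeR adjusted p = 0.605), and -0.038 without knockout replicate 1. Of the 7 lectin pathway partners fixed alongside, all were tested and 0 passed, with a median of -0.011, 3 above 0 and 4 below. At an unadjusted p under 0.05, 1 was higher and 2 were lower, where 8.1% and 7.35% of all tested genes were. DESeq2 called 1, Fcna, beside 3.41% of the genes it tested. Fcna, the macrophage ficolin gene, had the smallest p, at 50.6 ± 1.9 CPM in the knockout and 67.0 ± 5.2 CPM in wild type livers (SD, n = 3 each), for a log2 change of -0.40 ± 0.09 (SE; edgeR adjusted p = 0.101). The mannose-binding lectin genes differed in sign, Mbl1 at -0.32 ± 0.10 (SE; edgeR adjusted p = 0.17) and Mbl2 at 0.35 ± 0.12 (SE; edgeR adjusted p = 0.215). Colec10, the partner of collectin-11 in mixed complexes, had 32.0, 40.0 and 55.5 CPM in knockout replicates 1 to 3, against 48.0, 48.5 and 46.9 CPM in wild type replicates 1 to 3. Its order among the knockout libraries was that of Colec11, and its groups overlapped.

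**Figure D3:**
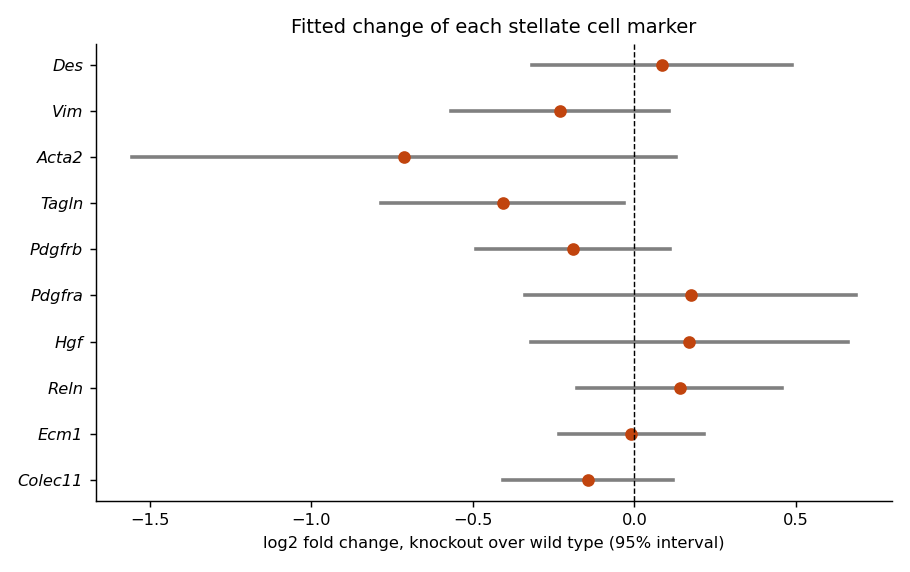
Fitted log2 fold change of each marker, knockout over wild type (points), with 95% intervals from edgeR's quasi-likelihood test (lines). The interval for Tagln alone, from -0.78 to -0.031, leaves out 0, and it is not adjusted for the number of genes tested.

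At 95%, the intervals give a range for the difference between genotypes, estimated from 3 libraries each, and do not exclude larger differences. For 9 of 10 markers the 95% interval lay inside a 2-fold change in either direction, the exception being Acta2. For 6, Des, Vim, Pdgfrb, Reln, Ecm1 and Colec11, it lay inside 1.5-fold. These intervals are not adjusted for the number of genes tested.

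The markers varied more among knockout than among wild type livers in 7 of 10 cases, all but Des, Pdgfrb and Ecm1, as did 60.1% of all tested genes. Knockout replicate 1 was the lowest of the 6 libraries for 6 of 10 markers, Tagln, Pdgfrb, Pdgfra, Hgf, Reln and Colec11, and the highest for 0. Over all tested genes it was lowest for 16.8% and highest for 17.2%. For the 19 tested genes of a second list of stellate cell genes it was lowest for 8 and highest for 0. Scaling by total counts, added after seeing the data, put it lowest for 7 of the 10 markers, beside 29.0% of all tested genes. Relative to the wild type mean the median of the 10 markers was -0.29, -0.020 and -0.023 on the log2 scale in knockout replicates 1 to 3 and between -0.040 and 0.058 in wild type livers. Summed over the 10 markers the level was 279, 319 and 321 CPM in knockout replicates 1 to 3, against 323, 323 and 294 CPM in wild type replicates 1 to 3. Ecm1 makes up much of that sum. Hepatocyte markers summed to 125466 CPM in knockout replicate 1, the highest of the 6 libraries, beside 90339 to 112885 CPM in the others, and their part in the low values was not tested. Without knockout replicate 1 the median fold change of the 10 markers was -0.020 on the log2 scale.

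Adjusted for exon length, the markers spanned a wide range of levels. Exons of all transcripts of a gene were merged from GENCODE M21, since the sources used here do not give the annotation used for counting. The merged length can exceed that of any single transcript, and the order of the markers under other lengths was not tested. Ecm1 led with 56.5 ± 4.1 CPM per kilobase in the knockout and 56.9 ± 4.8 in wild type livers (SD, n = 3 each). Colec11 followed with 22.9 ± 3.1 CPM per kilobase in the knockout and 25.4 ± 1.1 in wild type livers (SD, n = 3 each). Both lay above all other markers in each of the 6 libraries.

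Tagln, at a mean over all libraries of 5.11 CPM per kilobase, and Vim, at 4.93, overlapped in range, although Tagln was higher in 5 of 6 libraries. Reln followed at 2.64 CPM per kilobase, its 62.7 CPM taken over 23.7 kilobases of merged exon. Then came Pdgfrb at 2.12, Acta2 at 1.70 and Des at 1.13. From Reln to Des each gene overlapped the next in range, with the order kept in 5 of 6 libraries. Hgf at 0.809 and Pdgfra at 0.626 CPM per kilobase were lowest, Des above Hgf and Hgf above Pdgfra in all 6 libraries despite overlapping ranges. This order placed the receptors and the classical filament desmin well below Ecm1 and Colec11 in these livers.

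**Figure D4:**
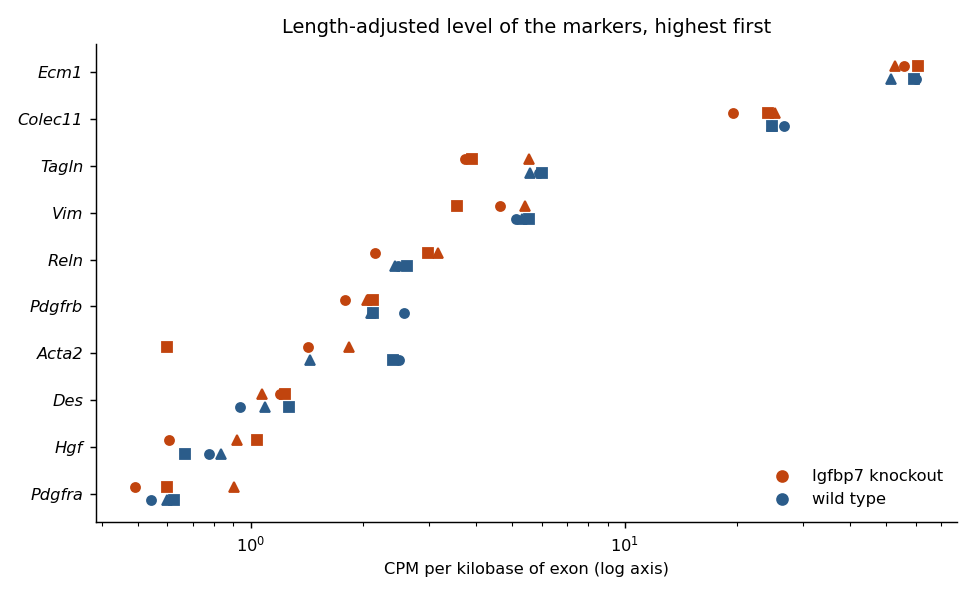
CPM per kilobase of merged exons (horizontal, log axis) for each marker, ordered by the mean over 6 libraries, with knockout libraries in the upper row and wild type libraries in the lower row of each gene and symbols for the replicate as in the plot of CPM. Ecm1 and Colec11 stand above the other 8, and Acta2 in knockout replicate 2 sits far left of its other values.

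Other genes of stellate cells gave a mixed picture as well. Of the 20 on the second list 19 were tested, 0 passed over all genes, 6 had a fold change above 0 and 13 below, and the median was -0.11. The unadjusted p was under 0.05 for 1 higher and 3 lower genes, beside 8.1% and 7.35% of all tested genes, and DESeq2 called 0. Gfap, a filament gene used as a stellate marker in rodents, had 1 to 11 counts per library and was not tested. Ngfr, the gene of the low-affinity nerve growth factor receptor, had the smallest p, at 3.69, 4.58 and 3.39 CPM in knockout replicates 1 to 3, against 8.88, 4.96 and 6.64 CPM in wild type replicates 1 to 3. Its groups did not overlap, as held for 10.1% of all tested genes in this direction. The log2 fold change was -0.81 ± 0.24 (SE; edgeR adjusted p = 0.166). Cxcl12, a chemokine gene of liver stroma, lay on the other side, at 410 ± 75 CPM in the knockout and 299.5 ± 23.6 CPM in wild type livers (SD, n = 3 each), for a log2 change of 0.45 ± 0.14 (SE; edgeR adjusted p = 0.182).

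Fibrogenic activation genes, among them collagens, lysyl oxidases and inhibitors of matrix breakdown, did not pass either. Of 20 listed, 17 were tested and 0 passed, 7 above 0 and 10 below, with a median of -0.074. The unadjusted p was under 0.05 for 1 higher and 2 lower genes, beside 8.1% and 7.35% of all tested genes, and DESeq2 called 0. Timp1, Lox and Fap were too low to be tested. On few counts, Timp1 and Fap had a higher mean CPM in the knockout and Lox a lower one. Ctgf, a matricellular gene induced by TGF-beta, was at 12.4 ± 2.3 CPM in the knockout and 8.18 ± 1.38 CPM in wild type livers (SD, n = 3 each), for a log2 change of 0.60 ± 0.18 (SE; edgeR adjusted p = 0.177). Tgfb1 itself was at -0.53 ± 0.18 (SE; edgeR adjusted p = 0.226) and the lysyl oxidase gene Loxl1 at -0.84 ± 0.29 (SE; edgeR adjusted p = 0.231). In each of these 3 the groups did not overlap, beside 20.7% of all tested genes in either direction.

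Smooth muscle genes, the list nearest to Acta2 and Tagln, were tested for 10 of 14 members, of which 0 passed, 2 lay above 0 and 8 below, with a median of -0.21. The unadjusted p was under 0.05 for 1 higher and 2 lower genes, beside 8.1% and 7.35% of all tested genes. DESeq2 called 1, Mylk, beside 3.41% of the genes it tested. Mylk, the myosin light chain kinase gene, was on the high side, at 152, 193 and 156 CPM in knockout replicates 1 to 3, against 109.8, 116 and 98.6 CPM in wild type replicates 1 to 3, for a log2 change of 0.63 ± 0.12 (SE; edgeR adjusted p = 0.0735). Tpm1, a tropomyosin gene, was at -0.38 ± 0.10 (SE; edgeR adjusted p = 0.144) and Flna, the filamin A gene, at -0.30 ± 0.12 (SE; edgeR adjusted p = 0.272). In none of these 3 did the groups overlap, as held for 20.7% of all tested genes in either direction. The fitted changes of the tested smooth muscle genes were thus mostly below 0, with 2 of 10 above. The 4 left out as too low, Cnn1, Actg2, Lmod1 and Pln, are markers of smooth muscle. Each had a lower mean CPM in the knockout, on few counts. Portal fibroblast and mesothelial genes were tested for 9 of 14, of which 0 passed, with a median of -0.15 and 0 called by DESeq2. At an unadjusted p under 0.05 there was 1, higher, where 8.1% of all tested genes were. Msln, a mesothelial gene, was at 0.73 ± 0.31 (SE) and Thy1, a gene of portal fibroblasts, at -0.91 ± 0.43 (SE). Eln, the elastin gene, was at -0.70 ± 0.33 (SE), and none of these passed the threshold. Among the genes too low to be tested, Gli1, Wt1 and Lrrn4 had a higher mean CPM in the knockout, on few counts. Clec3b and Pi16 had a lower one.

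Markers of the other liver cells, in the same fit, set these medians in context. The 15 liver endothelial markers had a median of -0.091, with 5 above 0 and 10 below, and a summed level of 673 to 781 CPM in the knockout and 725 to 751 CPM in wild type livers. For the Kupffer cell and macrophage markers the median was -0.69. For the 9 tested T, NK and B cell markers it was -0.63, with 9 below 0 and a summed level of 12.3 to 18.6 CPM in the knockout and 22.5 to 24.6 CPM in wild type livers. The filter left 4 of these lymphocyte markers out, and a gene scarce in the knockout passes it where wild type livers hold more. Cholangiocyte markers, 6 of 10 tested, had a median of -0.34, and the 10 hepatocyte markers had one of 0.19. By edgeR 0 genes of these 5 lists passed over all genes. At an unadjusted p under 0.05, 14 of the 15 Kupffer cell and macrophage markers were lower, against 7.35% of all tested genes. DESeq2 called 11 of them lower, beside 3.41% of the genes it tested in either direction. The same counts were 5 and 0 for the lymphocyte markers, 1 and 0 for the endothelial markers and 1 and 1 for the cholangiocyte markers, all lower. For the hepatocyte markers they were 1 and 1, higher, where 8.1% of all tested genes had such an unadjusted p. No test compared one list with another.

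**Figure D5:**
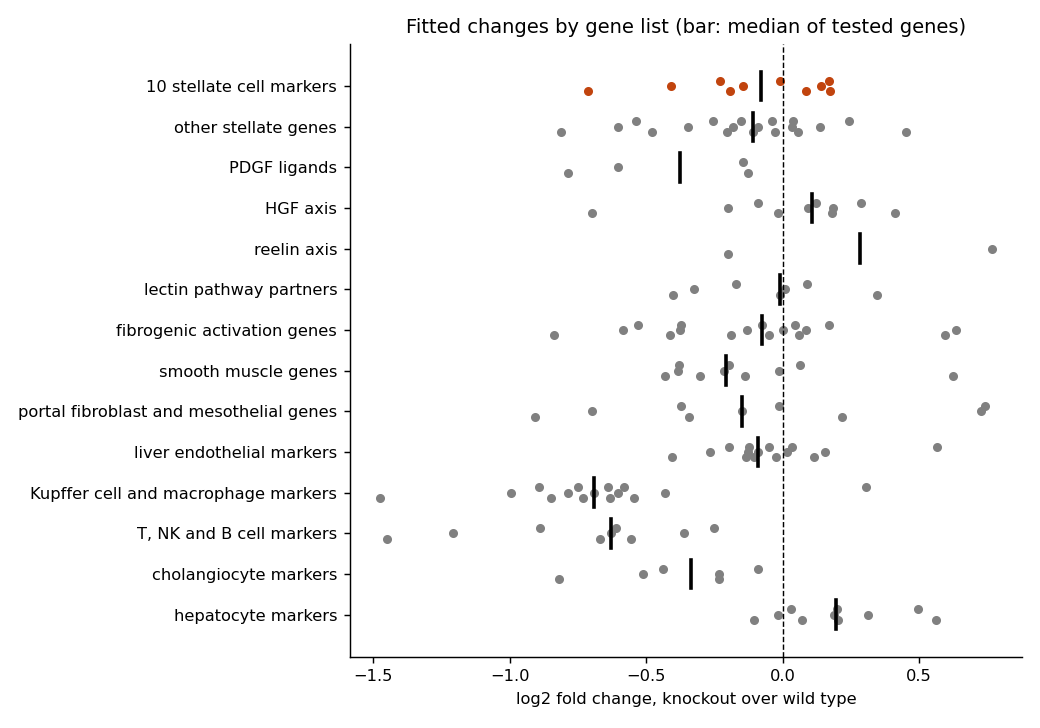
Fitted log2 fold change, knockout over wild type (horizontal axis), of every tested gene of each list (points), with the median as a bar and the 10 stellate cell markers in colour at the top. The stellate marker median of -0.078 lies near those of the endothelial markers at -0.091 and the fibrogenic genes at -0.074, and the Kupffer cell median lies at -0.69.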

How the data were processed

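What the authors deposited is a count of reads for each gene symbol in each library, in whole numbers without normalization. Per the submitters' processing notes, TopHat2 2.0.8b, HTSeq and CASAVA 1.8.2 were used, with the builds mm9 and hg19 named and no roles given. The sources used here do not give the annotation or the strand setting, so reads from genes that overlap on opposite strands may be mixed. The 5 rows that name no gene were dropped, and reads outside genes made up 9.65% to 12.5% of uniquely placed reads.

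The main test was edgeR 4.0.16 in R 4.3.3, with filterByExpr at a minimum count of 10, TMM, a quasi-likelihood fit on genotype alone and 2-sided tests adjusted by Benjamini-Hochberg over the 12522 genes kept. Standard errors and intervals come from the F statistic and its degrees of freedom. The steps were tested on simulated counts with known changes in genes drawn from all tested genes. They called 24.2% of 1.5-fold, 57.7% of 2-fold and 98.3% of 4-fold changes, so many small changes would be missed. Alternatives were DESeq2 1.42.0, limma 3.58.1 (voom), other scalings and filters, robust edgeR, a block by replicate number, a clock score as covariate, each library left out and a threshold of 0.01.

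The markers and lists were chosen with earlier results of these data known. Every marker is described, and from each related list up to 3 tested genes with the smallest p are named. The result of 1 such gene is not reported here. For lists of other cells only counts, medians and summed levels are given. Colec10, Pdgfb, Gfap, other genes too low to be tested and the overlapping gene Pcsk7 are named outside that rule, after their values were seen. Names, overlaps and the promoter come from RefSeq tables of GRCm38.p6, a build other than those in the notes, so no gene coordinates from the files are given.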

Additional observations from a re-analysis of the deposited data

How the results depend on the processing

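In each alternative run, 0 of the 10 stellate cell markers passed. The median of their log2 fold changes stayed between -0.16, without knockout replicate 3, and -0.020, without knockout replicate 1, in each within 0.12, its spread between libraries, of the reported -0.078. Leaving out robust estimation and the threshold of 0.01, which do not alter a fold change, 143 of 150 values of single markers kept their direction and 7 changed sign, none of them past the threshold. With the clock score as a covariate Des was at -0.092, Ecm1 at 0.062, Hgf at 0.11 and Reln at 0.087. With 1 library left out Des ran from -0.019 (without wild type replicate 1) to 0.20, Pdgfra from -0.11 (without knockout replicate 3) to 0.35, and Ecm1 from -0.078 to 0.037. Ecm1 was above 0 without knockout replicate 3, wild type replicate 1 or wild type replicate 2. The cause of these turns was not tested.

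The number of genes called among all tested, 27 by edgeR, was 133 with no filter, 427 by DESeq2, 68 with robust estimation, 1 with the clock score, 1 at a threshold of 0.01, and 3 to 36 with 1 library left out. The replicate block left 1 called gene. Deviations of same-numbered libraries correlated at -0.083, -0.098 and -0.041, so the numbers were not taken to pair the samples. Counting error was largest for Acta2 in the knockout, at 14.6% of the level beside an observed spread of 49.1%, and for Des in wild type livers, at 11.4% beside 15.3%.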
